A study of Mus musculus with 6 samples.

Results

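Complex I, NADH:ubiquinone oxidoreductase, is the largest enzyme of the mitochondrial respiratory chain, and its nuclear-encoded subunits carry the gene symbols Nduf with a letter and a number. The rows taken were those whose symbol begins with Ndufa, Ndufab, Ndufb, Ndufc, Ndufs or Ndufv followed by a number, leaving out the Ndufaf assembly factors. They came to 38 of the 18660 rows of the count table. Of these, 35 are subunits with a place in the complex, and the other 3 are Ndufa4, which was later placed in complex IV, its relative Ndufa4l2, and Ndufb4c, a copy of Ndufb4. Ndufs5 and Ndufb1, and the core subunits encoded by mitochondrial DNA, were not analysed here.

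Complex I takes electrons from NADH, passes them along flavin and iron-sulfur clusters to ubiquinone, and pumps protons across the inner mitochondrial membrane. An N module at the tip of the matrix arm oxidizes NADH, a Q module below it reduces ubiquinone, and a membrane arm with a proximal and a distal part pumps protons. Cleavage-stage mouse embryos inherit their mitochondria from the egg and draw much of their energy from pyruvate through oxidative phosphorylation.

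The embryos were mouse embryos at the 2-cell stage, and their polyadenylated RNA was sequenced. In the arsenite group (3 libraries) sodium arsenite, a thiol-binding arsenic salt, was present in the G1-PLUS medium at 5 µM, and the control group (3 libraries) is labelled 0 µM. The labels name no strain, embryo number per library or duration of exposure, and no genotype that sets the groups apart. Library totals were 7754037 to 8515078 counts, so that 3 counts were worth 0.335 to 0.438 CPM (counts relative to library size, scaled by TMM factors). Nothing in the labels says whether replicates came from separate cultures, so p-values here reflect the spread among 6 libraries only, and that spread may be technical. All 11 egg and 2-cell markers of the embryo list were detected in every library, among them Dppa3, a maternal factor of the early embryo, at 6094, 1999 and 10580 CPM with arsenite and 7829, 5460 and 9950 CPM in controls. The list summed to 13310, 10980 and 16860 CPM with arsenite and 9998, 6996 and 11250 CPM in controls, and every arsenite library lay above every control for 8 of its genes (such as Btg4, at 3296 to 6086 CPM with arsenite and 478 to 950 CPM in controls) and below for 1, Zp3. Of 17 cumulus cell markers 10 were in the table, and their summed level was 11.6, 17.0 and 12.7 CPM with arsenite and 3.25, 5.36 and 6.83 CPM in controls. These cumulus sums did not overlap. Every arsenite library lay above every control for 2 of the 10, Cyp11a1 and Tnfaip6, and below for 0. Over all genes tested, 21.9% lay above in this way and 19.7% below. Cyp11a1, a steroidogenic enzyme, had 16, 23 and 23 counts with arsenite and none in any control library. Has2, Inhba and Areg had no count in any arsenite library and at most 3 counts in any control library. The part of these embryo and cumulus levels in the results was not tested. Of 9 blood and stroma markers 4 were in the table, summing to 6.42 to 12.0 CPM with arsenite and 10.9 to 17.8 CPM in controls.

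Of the 36 subunit genes with enough counts to be tested, 6 fell with arsenite and 0 rose (quasi-likelihood test of edgeR, called at a Benjamini-Hochberg adjusted p under 0.05). The 6 were Ndufa12, Ndufc1, Ndufb10, Ndufb2, Ndufb7 and Ndufa9, and they fell by 1.49 to 2.93 on the log2 scale. Calls of a lower level made up 16.7% of the tested members, against 7.26% of all 12582 genes tested, and calls of a higher level made up 9.43% of all genes. At an unadjusted edgeR p under 0.05, 11 members were lower and 1 was higher, against 15.8% and 18.2% of all genes. For the count of higher members, DESeq2 gave 1, Ndufa4, and limma-voom gave 0. The 6 falls came to 1, Ndufa12, without arsenite replicate 1 or control replicate 3, and to 3 without control replicate 2, and the log2 fold changes of all 6 stayed below 0 with each library left out in turn.

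Log2 fold changes were below 0 for 26 of the 36 members (72.2%, against 47.8% of all genes tested), with a median of −0.62 against 0.07 for all genes. Scaled by library size only, which makes fewer of all calls higher (46.5% against 56.5%), the medians were −0.77 for the members and −0.05 for all genes, so the distance between them was −0.72 against −0.69 with TMM. In 12 of the 36 tested members every arsenite library lay below every control library, and in 0 every arsenite library lay above. The shares over all genes tested were 19.7% and 21.9%. These 12 held the 6 called genes and, among others, Ndufa6, Ndufs3, Ndufs7, Ndufa13 and Ndufb9. With the shared replicate number as a block, edgeR called 8 members lower, Ndufa13 among them, and 1 higher, Ndufa4, where 12.6% of all genes were called lower and 13.4% higher. CPM are relative to the library, so they do not show the amount of RNA per embryo or per cell. In RNA from whole embryos, a lower level in every cell and a lower level in some cells cannot be told apart.

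**Figure D1:**
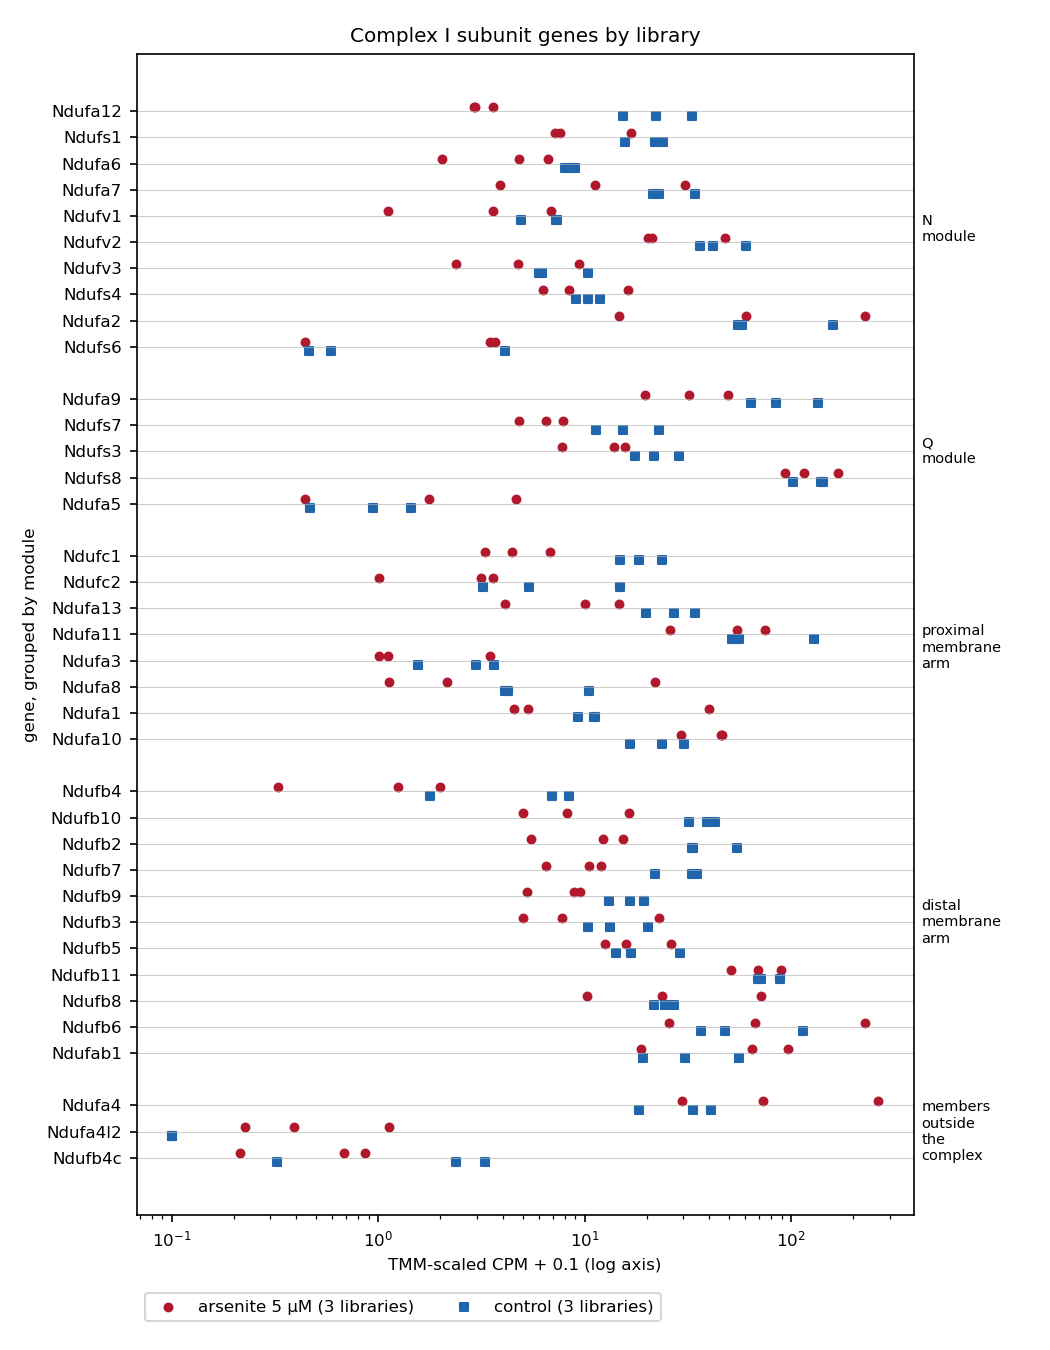
TMM-scaled CPM of 37 of the 38 genes in each library, with 0.1 CPM added for the log axis and 3 points a group; red circles are arsenite libraries, blue squares controls, and genes are grouped by module. Ndufa12 lies at 2.80 to 3.50 CPM with arsenite and 15.3 to 32.8 CPM in controls.

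Promoter sequence is shown for called genes. Nuclear respiratory genes are known to share sites for the factors NRF1, GABP (an ETS factor), YY1, ERR, SP1 and CREB. Any part of such sites in the falls was not tested. The stretch runs from 150 bases before to 10 bases after the RefSeq start on GRCm38.p6, and is given for the called genes that hold a whole searched motif inside it, on the strand of the gene. Capitals mark the motif: SP1 in Ndufa12 at chr10:94198885-94199044 (plus strand), NRF1 in Ndufb10 at chr17:24724414-24724573 (minus strand), the cyclic AMP element CRE in Ndufb2 at chr6:39592415-39592574 (plus strand) and ETS in Ndufb7 at chr8:83566608-83566767 (plus strand).
Ndufa12: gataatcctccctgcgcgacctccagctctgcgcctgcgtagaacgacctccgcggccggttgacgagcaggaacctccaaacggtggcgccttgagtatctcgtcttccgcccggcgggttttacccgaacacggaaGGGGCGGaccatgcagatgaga
Ndufb10: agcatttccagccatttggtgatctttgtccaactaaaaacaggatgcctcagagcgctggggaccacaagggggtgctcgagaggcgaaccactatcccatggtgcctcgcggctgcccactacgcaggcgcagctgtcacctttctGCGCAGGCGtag
Ndufb2: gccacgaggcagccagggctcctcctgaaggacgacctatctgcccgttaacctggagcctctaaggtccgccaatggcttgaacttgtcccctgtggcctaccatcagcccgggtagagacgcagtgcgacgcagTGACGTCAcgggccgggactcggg
Ndufb7: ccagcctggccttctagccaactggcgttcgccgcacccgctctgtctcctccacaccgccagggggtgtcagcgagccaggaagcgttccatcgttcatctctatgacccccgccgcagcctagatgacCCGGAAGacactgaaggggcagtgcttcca

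The 4 promoters held 4 different motifs, which began 12 bases before the start in Ndufa12, 2 before it in Ndufb10, 14 before it in Ndufb2 and 20 before it in Ndufb7. A RefSeq window of 250 bases before to 50 after the start was available for 32 of the 38 members, and both strands were searched. The YY1 motif, AANATGGCG, was in 7 of the 32 windows (21.9%), against 6.05% of 9886 tested genes with a window and 2.76% of all 27025 windows. It began 22 to 35 bases after the start in Ndufa9, Ndufc1, Ndufs4, Ndufs6 and Ndufs7, and before the start in Ndufa7 and Ndufb11. The NRF1 motif, GCGCANGCG, was also in 7 (21.9%, against 15.0% of tested genes and 7.03% of all windows), and the CRE motif, TGACGTCA, in 3 (9.38%, against 3.56% and 2.03%). The ERR motif, AAGGTCA, was in 2 (6.25%, against 3.89% and 5.38%). The ETS motif, CCGGAAG, was in 4 (12.5%, against 19.8% of tested genes and 9.93% of all windows), and the SP1 motif, GGGGCGG, in 10 (31.2%, against 45.3% and 25.5%). Among the 6 called genes YY1 was in 2 windows and each other motif in 1. No printed match overlapped another searched motif, and such matches describe the sequence only.

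In the N module, which oxidizes NADH, 1 of 10 genes tested fell and 0 rose, and 8 had a log2 fold change below 0 (median −0.70). The share called lower, 10%, was near the 7.26% of all genes, of which 9.43% were called higher. Log2 fold changes were below 0 for 80% of the module, against 47.8% of all genes. Ndufa12 is an accessory subunit that, in human cells, takes the place of the related assembly factor NDUFAF2 late in assembly. It lies on chromosome 10 at 94199035 to 94221440 (GRCm38.p6). Ndufa12 had 2.80, 2.85 and 3.50 CPM with arsenite, against 22.0, 15.3 and 32.8 CPM in controls. The arsenite libraries lay close together and far below every control library. The log2 fold change was −2.93 ± 0.50 (SE, edgeR adjusted p = 0.00689), the largest fall of the members tested. It stayed called with each of the 6 libraries left out in turn, with log2 fold changes of −3.16 to −2.68 and an adjusted p of at most 0.0422. Gm15920, a processed pseudogene, matches 402 bases of the Ndufa12 transcript at 99.5% identity, and the sources used here do not say how reads shared by copies were counted.

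Ndufaf2, the assembly factor named above and set beside Ndufa12 after their values were seen, had 35.2, 22.5 and 61.9 CPM with arsenite, against 12.4, 16.0 and 26.2 CPM in controls. The ratio of Ndufa12 to Ndufaf2 in CPM was 0.0794, 0.127 and 0.0566 with arsenite, against 1.78, 0.958 and 1.25 in controls. These ratios did not overlap between groups, while the Ndufaf2 levels did. Since the Ndufa12 levels alone were already apart, the gap in the ratios is a description only and carries no evidence on Ndufaf2. Ndufaf2 had a log2 fold change of 1.13 ± 0.46 (SE) at an adjusted p by edgeR of 0.112, and the replicate block gave an adjusted p of 0.0458.

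The core subunits of the N module are Ndufv1, which binds NADH and flavin, and Ndufv2 and Ndufs1, which carry iron-sulfur clusters. Ndufs1 had 7.50, 7.07 and 16.7 CPM with arsenite, against 21.8, 15.5 and 23.9 CPM in controls, and arsenite replicate 3 lay within the controls. Its log2 fold change was −0.97 ± 0.48 (SE, edgeR adjusted p = 0.179). Ndufv2 had 21.1, 20.2 and 47.9 CPM with arsenite, against 41.7, 36.2 and 60.1 CPM in controls, and again only arsenite replicate 3 reached the controls. Ndufv1, among the lowest of the members, had 1.02, 6.73 and 3.50 CPM with arsenite and 4.82, 7.26 and 7.20 CPM in controls. Log2 fold changes were −0.63 ± 0.42 for Ndufv2 and −0.77 ± 0.75 for Ndufv1 (SE), and neither passed the test. The other accessory genes were Ndufa6, a small LYR-motif protein, Ndufs4 and Ndufs6, which join the N and Q modules, and Ndufa2, Ndufa7 and Ndufv3. Their log2 fold changes ran between −0.94 (Ndufa6) and 0.56 (Ndufs6), with 0 of 6 past the test.

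The Q module held 4 of the 12 members whose groups did not overlap. Of its 6 genes 1 fell and 0 rose, and the median log2 fold change was −1.12. Over all genes tested, 7.26% were called lower and 9.43% higher, and 19.7% had every arsenite library below every control. Ndufa9, an accessory subunit with a nucleotide-binding fold at the junction of the matrix and membrane arms, lies on chromosome 6 at 126821863 to 126849144. It had 31.9, 49.4 and 19.4 CPM with arsenite, against 84.4, 135.1 and 63.4 CPM in controls. In both groups replicate 2 was highest and replicate 3 lowest, and every arsenite library lay below every control. The log2 fold change was −1.49 ± 0.42 (SE, edgeR adjusted p = 0.0361). The adjusted p was 0.0218 without arsenite replicate 2 and between 0.0620 and 0.121 with any other library left out. Ndufa9 shares 67 exon bases with 1700018A23Rik, an antisense gene.

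Ndufs7 carries an iron-sulfur cluster that hands electrons to ubiquinone. It had 7.76, 4.68 and 6.42 CPM with arsenite, against 15.3, 22.7 and 11.2 CPM in controls. The groups did not overlap. The log2 fold change was −1.38 ± 0.50 (SE, edgeR adjusted p = 0.0769), so Ndufs7 did not pass the test. Ndufs3, an early building block of the module, had 15.6, 7.64 and 13.7 CPM with arsenite, against 28.4, 21.4 and 17.4 CPM in controls, with a log2 fold change of −0.86 ± 0.44 (SE) at an adjusted p by edgeR of 0.190. Ndufs8 carries iron-sulfur clusters next to the ubiquinone site, and in it the groups overlapped widely. It had 168.9, 93.1 and 115.5 CPM with arsenite, against 102.3, 141.8 and 138.7 CPM in controls, and its log2 fold change was −0.02 ± 0.31 (SE). Ndufa5, an accessory subunit, stayed under 5 CPM in every library, at 1.65, 0.342 and 4.53 CPM with arsenite and 0.843, 1.34 and 0.366 CPM in controls. Over both matrix modules, the 7 core subunits all had log2 fold changes below 0, against 47.8% of all genes tested. The highest was −0.02 (Ndufs8, which turned to 0.31 with a trend on length and GC removed). Of the 7, 0 passed the test (edgeR), where 7.26% of all genes were called lower. At an unadjusted edgeR p under 0.05, 2 were lower, against 15.8% of all genes. In 3 the groups did not overlap, all lower with arsenite, against 19.7% of all genes.

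In the proximal membrane arm 1 of 8 genes fell and 0 rose (median log2 fold change −0.59). That is 12.5% lower, where 7.26% of all genes were called lower and 9.43% higher. Ndufc1, a small membrane subunit of this arm, lies on chromosome 3 at 51405479 to 51408955. It had 4.32, 3.19 and 6.72 CPM with arsenite, against 14.7, 18.3 and 23.5 CPM in controls. The highest arsenite library was well below the lowest control. The log2 fold change was −1.99 ± 0.50 (SE, edgeR adjusted p = 0.0249), and the adjusted p was 0.0868 without arsenite replicate 1, 0.0546 without control replicate 2 and 0.0854 without control replicate 3. Ndufa13, also known as GRIM-19 and studied in human cells for a role in cell death, had 9.92, 3.99 and 14.6 CPM with arsenite, against 27.0, 19.8 and 34.2 CPM in controls. These groups did not overlap either, with a log2 fold change of −1.51 ± 0.51 (SE) at an adjusted p by edgeR of 0.0665 and an adjusted p of 0.0170 with the replicate block and 0.0494 without arsenite replicate 3. Exons of Ndufa13 share 375 bases with Tssk6 on the opposite strand, and the sources used here do not say whether counting used strand.

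The remaining genes of this arm, Ndufa1, Ndufa3, Ndufa8, Ndufa10, Ndufa11 and Ndufc2, had log2 fold changes between −1.62 (Ndufc2) and 0.79 (Ndufa10), and 0 of 6 passed the test. Ndufa10, which has a nucleoside kinase fold, was the only member of the 36 tested that was higher with arsenite in all 3 same-numbered pairs of libraries. Genes lower in 0 of the 3 pairs made up 2.78% of tested members, against 31.9% of all genes, so the pattern of Ndufa10 is common over the table. Ndufa10 had 46.2, 45.9 and 29.2 CPM with arsenite, against 23.5, 30.2 and 16.5 CPM in controls. Arsenite replicate 3 lay below control replicate 2, so the groups overlapped, and the log2 fold change was 0.79 ± 0.38 (SE, edgeR adjusted p = 0.163). In Ndufa8 and Ndufa1 a single arsenite library stood far above the others, at 21.9 CPM in replicate 1 for Ndufa8 and 39.7 CPM in replicate 3 for Ndufa1, where the other arsenite libraries had at most 2.05 and 5.21 CPM.

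The distal membrane arm held 3 of the 6 falls, in Ndufb10, Ndufb2 and Ndufb7, and 0 of its 11 genes rose (median log2 fold change −0.31). That is 27.3% lower, where 7.26% of all genes were called lower and 9.43% higher. Ndufb10 and Ndufb7 face the intermembrane space and are held by disulfide bonds, and Ndufb2 is a small accessory subunit. Ndufb10, on chromosome 17 at 24722060 to 24724423, had 8.14, 4.91 and 16.4 CPM with arsenite, against 31.9, 42.4 and 39.2 CPM in controls. Ndufb2, on chromosome 6 at 39592565 to 39599843, had 12.2, 5.36 and 15.2 CPM with arsenite, against 33.2, 32.9 and 54.8 CPM in controls. Ndufb7, on chromosome 8 at 83566758 to 83571623, had 11.8, 6.39 and 10.4 CPM with arsenite, against 32.9, 21.8 and 35.0 CPM in controls. In all 3 genes arsenite replicate 2 was lowest and every arsenite library lay below every control. The log2 fold changes were −1.95 ± 0.48, −1.89 ± 0.46 and −1.65 ± 0.43 (SE, edgeR adjusted p = 0.0224, 0.0228 and 0.0271, in the order Ndufb10, Ndufb2, Ndufb7). Without arsenite replicate 1 the adjusted p was 0.0846, 0.0706 and 0.0665, and without control replicate 3 it was 0.0641, 0.0845 and 0.0893, in the same order. The Ndufb10 call was also lost without control replicate 2 (0.0604), and the Ndufb7 call without control replicate 1 (0.0746) or arsenite replicate 3 (0.0510). Ndufb2 shares 146 exon bases with Braf on the opposite strand and 145 with Gm42420 on its own strand.

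Ndufb4, another membrane subunit, had a log2 fold change of −2.36 ± 0.98 (SE) at an adjusted p by edgeR of 0.118, at 1.15, 0.228 and 1.90 CPM with arsenite and 6.86, 1.67 and 8.29 CPM in controls. Ndufb4c is identical to it over 390 bases, so reads cannot be assigned between them with certainty, and Ndufb4c had 0.763, 0.114 and 0.584 CPM with arsenite and 2.29, 0.223 and 3.17 CPM in controls. Their sum was 1.91, 0.342 and 2.48 CPM with arsenite, against 9.15, 1.90 and 11.5 CPM in controls, and in both groups replicate 2 was lowest. Ndufb9, an LYR-motif subunit, had 9.41, 5.13 and 8.76 CPM with arsenite, against 16.5, 13.1 and 19.3 CPM in controls, without overlap, and did not pass the test (log2 fold change −1.07 ± 0.47, SE, edgeR adjusted p = 0.136).

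Ndufab1, the mitochondrial acyl carrier protein, serves fatty acid synthesis and iron-sulfur cluster assembly besides complex I. It had 64.7, 18.6 and 96.1 CPM with arsenite, against 30.5, 19.0 and 56.0 CPM in controls. In both groups replicate 2 was lowest and replicate 3 highest, and the groups overlapped, with a log2 fold change of 0.77 ± 0.56 (SE) at an adjusted p by edgeR of 0.363. Ndufb3, Ndufb5, Ndufb6, Ndufb8 and Ndufb11 had log2 fold changes between −0.31 (Ndufb3) and 0.69 (Ndufb6), and 0 of 5 passed the test. Over all modules, 9 of the 35 genes had a log2 fold change above 0, and 0 of these 9 passed the test.

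**Figure D2:**
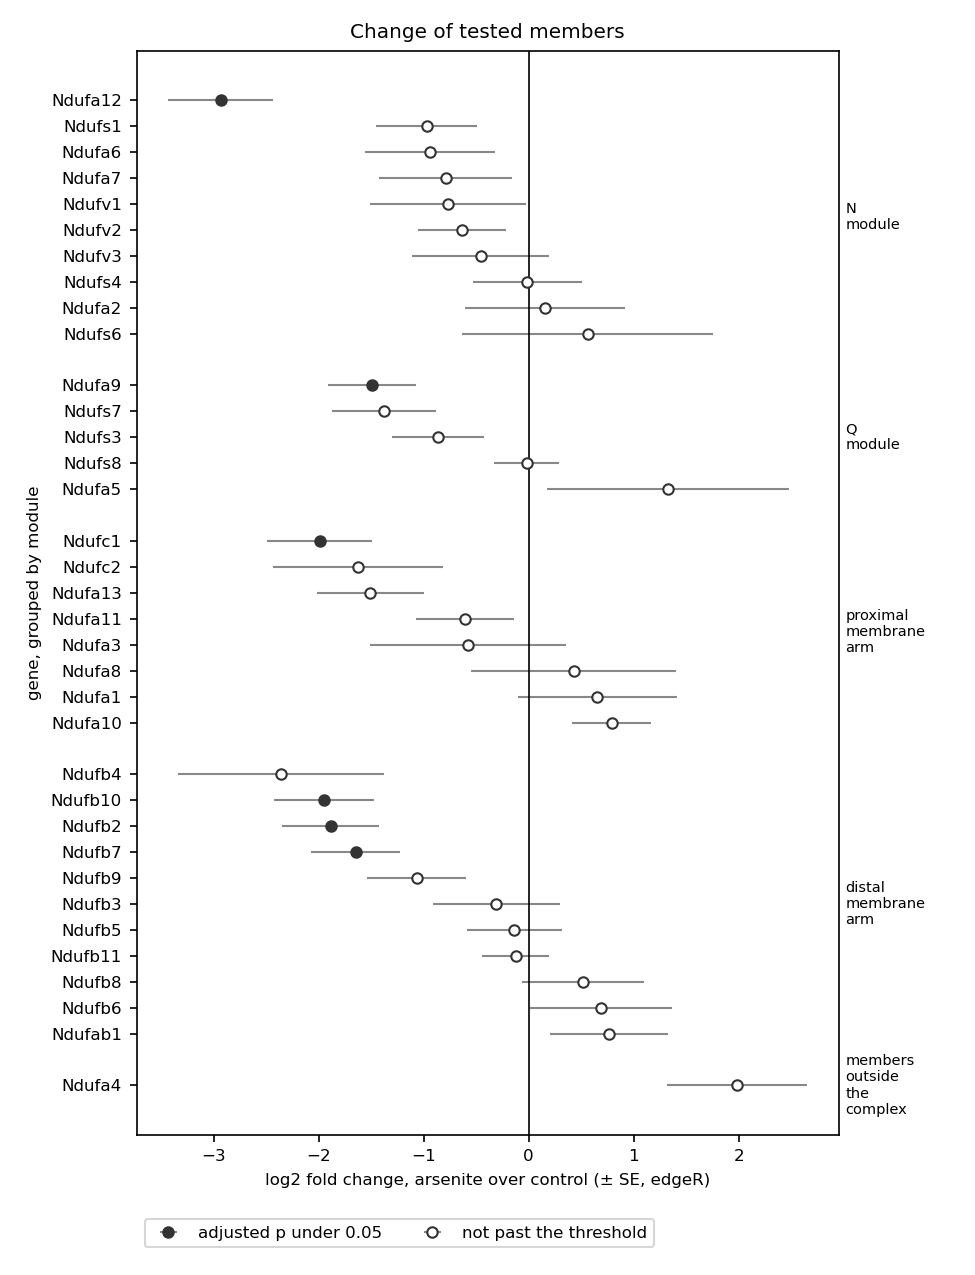
Log2 fold change, arsenite over control, of 35 of the 36 tested genes with SE from edgeR, grouped by module; filled points passed an adjusted p of 0.05. The 6 filled points lie between −2.93 and −1.49, spread over all 4 modules, and Ndufa4 has the highest value, 1.98.

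Ndufa4 had the highest log2 fold change of the members tested. It had 73.1, 29.4 and 263.7 CPM with arsenite, against 18.3, 33.4 and 40.9 CPM in controls. Arsenite replicate 3 was far above all other libraries and arsenite replicate 2 lay within the controls. The log2 fold change was 1.98 ± 0.67 (SE, edgeR adjusted p = 0.0631), and 1.54 with an adjusted p of 0.0481 with the replicate block. Without arsenite replicate 3 it was 0.74 (adjusted p = 0.336). Ndufa4l2, which in other cells is induced by low oxygen, had 1, 9 and 2 counts with arsenite and no count in any control library, where 3 counts would be 0.335 to 0.366 CPM. It and Ndufb4c did not pass the filter on low counts and were not tested.

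Sums over a module give most weight to its abundant genes. Summed over the Q module, arsenite libraries had 233, 162.9 and 180.0 CPM and controls 254, 353 and 274 CPM, without overlap, at means of 192.0 ± 36.5 and 294 ± 52.4 CPM (SD, n = 3 each). The called gene Ndufa9 supplied 31.9, 49.4 and 19.4 of these CPM with arsenite and 84.4, 135.1 and 63.4 in controls. With Ndufa9 taken out of the sum, arsenite replicate 1 lies above control replicate 1, so the gap depends on that gene. The N module summed to 185 ± 148 CPM with arsenite and 240.4 ± 89.0 CPM in controls, the proximal arm to 135 ± 43.8 and 175 ± 53.4 CPM, and the distal arm to 340 ± 215 and 366 ± 98.0 CPM (SD, n = 3 each). In these 3 the groups overlapped, with differences smaller than the SD among the arsenite libraries. All 38 members summed to 975 ± 526 CPM with arsenite and 1107 ± 237 CPM in controls (SD, n = 3 each).

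**Figure D3:**
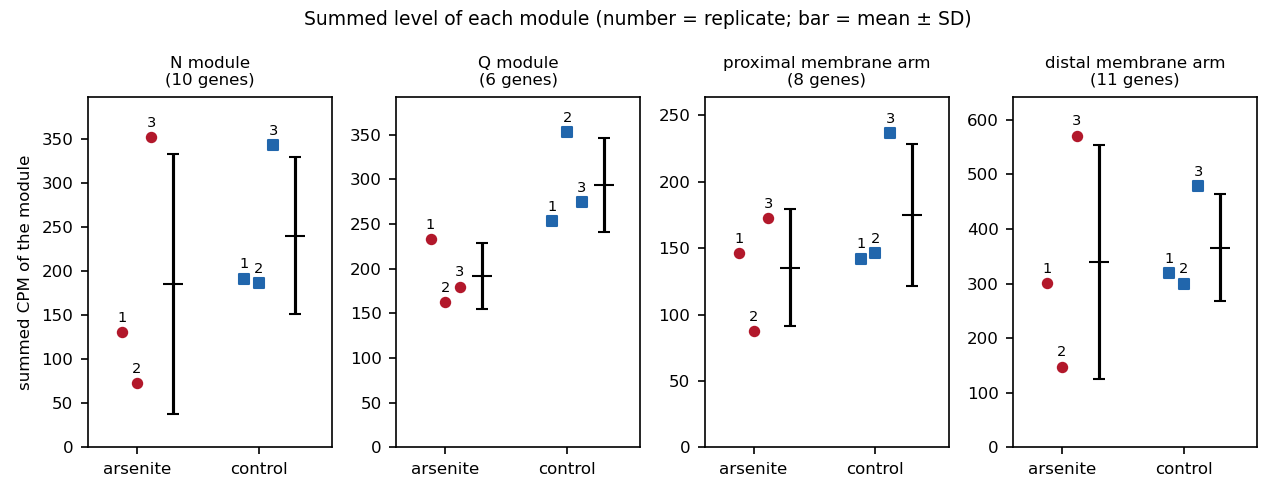
Summed CPM of the genes of each module by library, arsenite left and control right, with the replicate number above each point and the mean ± SD beside them; each axis starts at 0. The groups are apart only in the Q module, where the gap depends on Ndufa9. Arsenite replicate 3 reaches 571 CPM in the distal arm, where arsenite replicate 2 has 148 CPM.

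Per kilobase of transcript, the members with the highest mean level with arsenite were Ndufa4 (230 CPM per kb), Ndufa2 (176), Ndufb6 (162) and Ndufs8 (128), and in controls Ndufa2 (158 CPM per kb), Ndufa11 (145), Ndufs8 (130) and Ndufb6 (100.3). Set against each other within a group, these leading genes had ranges over libraries that overlapped, and Ndufa2 alone lay between 14.6 and 227 CPM with arsenite and 54.9 and 159 CPM in controls. Ndufa12 was rank 33 of 38 per kilobase with arsenite and rank 18 in controls. Ndufa9, the most abundant of the called genes per kilobase, had 23.2 CPM per kb with arsenite and 65.3 CPM per kb in controls.

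The size of the difference varied between libraries. Relative to the control mean on the log2(CPM + 1) scale, the median tested member lay at −0.80, −1.26 and −0.29 in arsenite replicates 1, 2 and 3, and at −0.10, −0.15 and 0.24 in control replicates 1, 2 and 3. Members below the control mean numbered 26, 32 and 21 of 36 in the arsenite libraries and 25, 22 and 10 in the controls. Arsenite replicate 2 was the lowest arsenite library for 28 members (77.8%, against 34.2% of all genes), and arsenite replicate 3 the highest for 23 (63.9%, against 35.6%). Replicate 3 was highest within both groups for 19 members (52.8%, against 15.0% of all genes). Within same-numbered pairs, the arsenite library was lower in all 3 pairs for 20 members (55.6%, against 30.0% of all genes). With arsenite replicate 3 left out the median log2 fold change of the members was −1.16, and with arsenite replicate 2 left out it was −0.48 over the same 36.

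**Figure D4:**
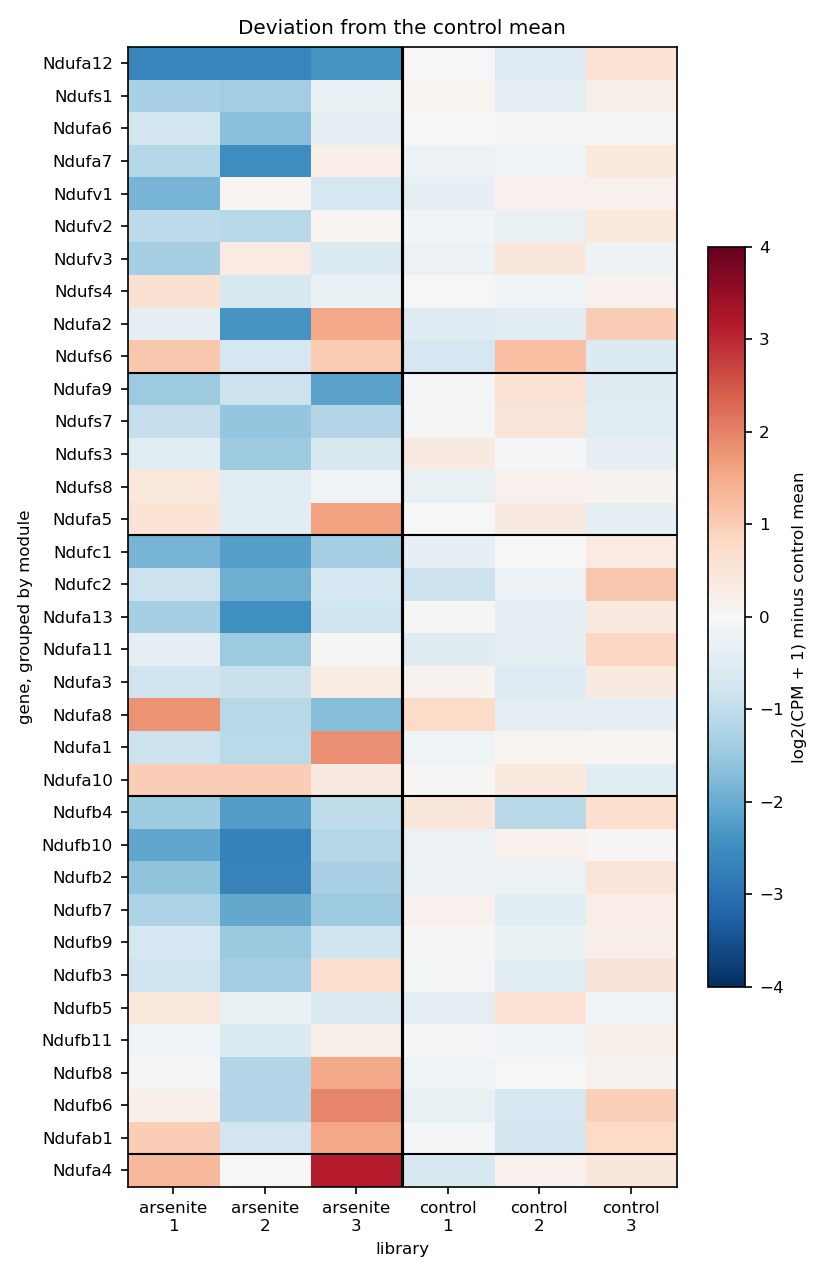
Deviation of log2(CPM + 1) from the mean of the 3 controls for 35 of the 36 tested genes in each library, arsenite columns left and control columns right; blue is below and red above the control mean. Of the arsenite columns, replicate 2 is blue for the most genes and replicate 3 for the fewest, with its deepest red in Ndufa4.

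Tested members had short transcripts, with a median of 872.5 bases and 52.2% GC, against 2804 bases and 49.5% for all genes tested. Across the 36 members, which share the same libraries, the log2 fold change had Spearman's rho of −0.16 with transcript length, −0.24 with GC content and 0.20 with mean level. The 5595 other tested genes in the same range of length, 419 to 2626 bases, had a median log2 fold change of −0.02, with 8.13% called lower and 11.2% called higher. With a trend on length and GC removed in each library, 5 of the 6 called genes passed the test and Ndufb7 did not. A near-identical copy elsewhere in the genome (at least 150 bases at 95% identity) was found for 8 of the 38 members (Ndufa12, Ndufab1, Ndufb3, Ndufb4, Ndufb4c, Ndufb11, Ndufs3 and Ndufs6), and 15 have exons that overlap another gene, 13 of them on the opposite strand.

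The factors that build complex I moved in both directions, with falls alone past the threshold of edgeR. Of 20 assembly factors tested 3 fell and 0 rose (median log2 fold change −0.53). That is 15.0% lower, against 7.26% of all genes lower and 9.43% higher. Under the replicate block 6 were lower and 1 higher, where 12.6% of all genes were called lower and 13.4% higher. DESeq2 gave 7 lower and 2 higher. Over the whole table it called 1557 genes lower and 1756 higher, against 914 and 1187 with edgeR. Ndufaf1, which starts the membrane arm, had 14.1, 26.4 and 16.1 CPM with arsenite, against 61.9, 64.1 and 51.8 CPM in controls (log2 fold change −1.65 ± 0.36, SE, edgeR adjusted p = 0.0153). Its groups lay far apart. Ndufaf7, a mitochondrial methyltransferase, had 56.2, 66.9 and 38.1 CPM with arsenite, against 113.8, 125.5 and 90.0 CPM in controls (log2 fold change −1.03 ± 0.32, SE, edgeR adjusted p = 0.0494). Timmdc1, an assembly factor of the membrane arm, had 17.6, 42.2 and 44.1 CPM with arsenite, against 78.7, 111.3 and 65.3 CPM in controls (log2 fold change −1.30 ± 0.40, SE, edgeR adjusted p = 0.0498). Both of these lay just inside the threshold, and Tmem126b, another membrane arm factor, lay just outside it. Tmem126b had 8.52, 3.54 and 15.0 CPM with arsenite, against 0.963, 2.68 and 0.610 CPM in controls (log2 fold change 2.65 ± 0.83, SE, edgeR adjusted p = 0.0502). Groups did not overlap for 9 of the 20 tested factors that were lower and 3 that were higher, against 19.7% and 21.9% of all genes. The 3 higher were Tmem126b, Foxred1 (7.50, 21.8 and 8.62 CPM with arsenite, against 3.73, 5.47 and 4.15 CPM in controls) and Ndufaf4 (log2 fold change 0.75 ± 0.35, SE). At an unadjusted edgeR p under 0.05 the list had 7 lower and 3 higher, against 15.8% and 18.2% of all genes. The 3 falls came to 0 without arsenite replicate 1 or control replicate 3, 1 without arsenite replicate 3, control replicate 1 or control replicate 2, and 5 without arsenite replicate 2.

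Of the 43 tested subunits of complexes II to V 7 fell and 1 rose (median log2 fold change −0.84), a share of 16.3% lower beside the 16.7% of complex I members and 7.26% of all genes. The share called higher was 2.33%, against 9.43% of all genes. In complex III, which takes the electrons of complex I on from ubiquinol, 3 of 9 fell, Uqcr10 (log2 fold change −2.49 ± 0.50), Uqcr11 (−1.79 ± 0.39) and Uqcrfs1, the Rieske iron-sulfur protein (−1.41 ± 0.35). In ATP synthase 3 of 16 fell, Atp5o, Atp5c1 and Atp5k, and in complex IV Cox4i1 alone of 14 (log2 fold change −1.52 ± 0.34; all with SE). Sdhc, a membrane anchor of complex II, was the 1 rise, at 74.1, 37.9 and 28.5 CPM with arsenite and 7.83, 22.1 and 16.7 CPM in controls (log2 fold change 1.59 ± 0.49, SE, edgeR adjusted p = 0.0484). With the replicate block the counts were 14 lower and 3 higher, where 12.6% of all genes were called lower and 13.4% higher. The 7 falls came to 2 without arsenite replicate 1, 4 without control replicate 2 and 0 without control replicate 3, and the Sdhc call was lost without any library but arsenite replicate 3 and when scaled by DESeq2 size factors or by library size only.

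Among 13 tested genes of iron-sulfur cluster assembly, which supplies the clusters of complex I, 1 fell and 2 rose (edgeR), and the median log2 fold change was 0.24. These counts are 7.69% lower and 15.4% higher, where all genes had 7.26% and 9.43%, so the lower share was near that of all genes. With the replicate block 2 were lower and 4 higher, where 12.6% of all genes were called lower and 13.4% higher. Lyrm4, the partner of the cysteine desulfurase, had 269, 120.1 and 474 CPM with arsenite, against 129.8, 51.7 and 88.5 CPM in controls, and its log2 fold change was 1.68 ± 0.49 (SE, edgeR adjusted p = 0.0410). The Lyrm4 groups overlapped, since control replicate 1 exceeded arsenite replicate 2. Isca1 rose as well, with a log2 fold change of 1.33 ± 0.40 (SE) at an adjusted p by edgeR of 0.0423. With a library left out, Lyrm4 passed only with arsenite replicate 2 left out and Isca1 only with arsenite replicate 3 left out. With a trend on length and GC removed 0 of the 13 were called higher.

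Of 11 tested regulators of nuclear and mitochondrial respiratory genes 3 fell and 0 rose (median log2 fold change −0.53). The share called lower was 27.3%, where 7.26% of all genes were called lower and 9.43% higher. The 3 were Polrmt, the mitochondrial RNA polymerase, Pprc1, a coactivator of the PGC-1 family, and Gabpb2, a GABP subunit. Polrmt had 8.14, 11.9 and 7.59 CPM with arsenite, against 29.6, 32.4 and 36.5 CPM in controls (log2 fold change −1.83 ± 0.39, SE, edgeR adjusted p = 0.0141). Pprc1 and Gabpb2 had log2 fold changes of −1.44 ± 0.32 and −1.08 ± 0.30 (SE, edgeR adjusted p = 0.0154 and 0.0357). At an unadjusted edgeR p under 0.05 the regulators had 3 lower and 0 higher, against 15.8% and 18.2% of all genes. DESeq2 and limma-voom also gave 0 higher regulators. The 3 falls came to 0 without arsenite replicate 1, 1 without control replicate 3 and 6 with the length and GC trend removed.

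**Figure D5:**
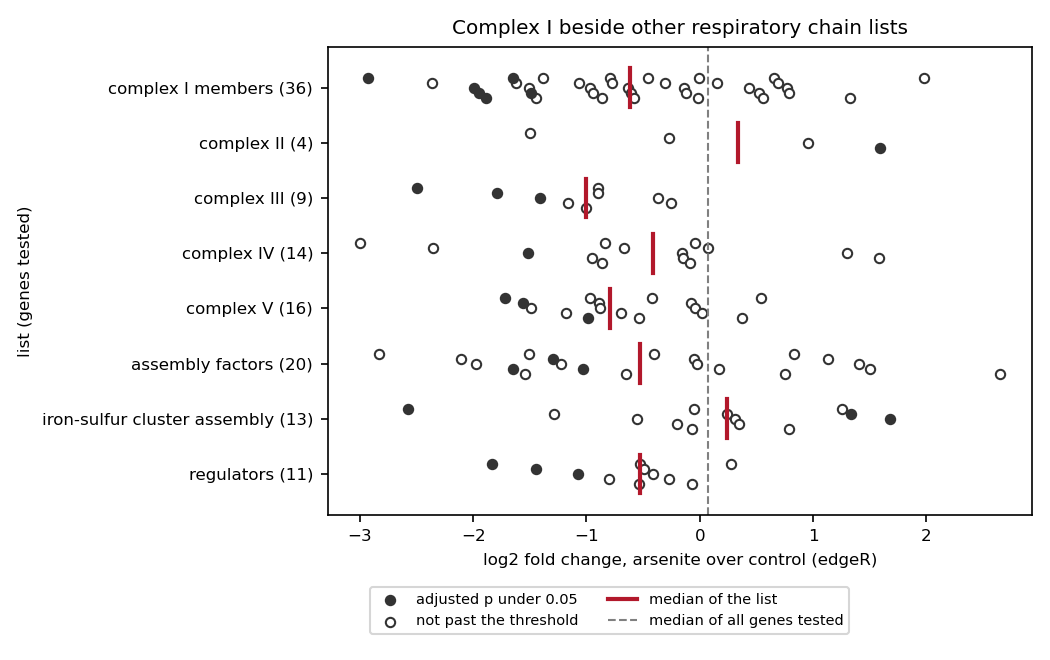
Log2 fold change, arsenite over control, of tested genes in complex I and in 7 other lists, with the number of genes tested in brackets; filled points passed an adjusted p of 0.05 (edgeR), red bars are list medians and the dashed line is the median of all genes tested. The medians of complex I (−0.62), complex III (the lowest), complex IV (−0.42), complex V (−0.79), the assembly factors and the regulators (both −0.53) lie left of the dashed line at 0.07, and those of complex II (0.34) and iron-sulfur cluster assembly (0.24) lie right of it.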

How the data were processed

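Per the submitters' processing notes, which give no roles, reads were handled with STAR (version not given), StringTie 2.1.4, featureCounts 1.6.2 and DESeq2 1.30.1 on mm10. The authors deposited whole, unnormalized read counts per gene symbol. The sources used here name neither the annotation nor the strand setting. The labels' protocols describe PCR preamplification of cDNA, no molecular identifiers and a pair of different library kits, so floors cover counting error only and the kit is uncertain.

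The test was the quasi-likelihood F-test of edgeR 4.0.16 under R 4.3.3, two-sided, with TMM factors, filterByExpr at its minimum count of 10 and Benjamini-Hochberg adjustment over all 12582 genes tested, for arsenite against control with no covariate. In 11 rows the symbol had become a date (0.0432% to 0.0818% of counts), and these rows were left out. Members and lists were chosen with earlier results of these data known, and lists were matched by symbol. Genes named were called members, the 2 smallest p of each module, core subunits, Ndufab1, Ndufa4 and copies, and up to 4 called genes of each other list. Ndufa5, Ndufa8, Ndufa1, Ndufa10, Ndufb4, Ndufb9, Ndufaf2, Tmem126b, Foxred1, Ndufaf4, Uqcrfs1, Sdhc and others given with values were chosen after their values were seen. Some genes are not reported here and are left out of the plots that label genes. Lengths are of GENCODE M21 principal transcripts, positions and promoters of RefSeq, and copies were sought with BLAST 2.17.0.

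Deviations from group means correlated at 0.221 to 0.261 for same-numbered libraries and −0.23 to −0.00606 for others. Such deviations come from the same data and cancel out within each group, so the correlations cannot establish pairing. The replicate block takes the numbers to pair libraries, without a label saying what they stand for. Every pair of libraries differed beyond sampling noise (lowest chi-square per degree of freedom 31.84). Alternatives were other scalings, filters, DESeq2 1.42.0, limma-voom (limma 3.58.1), the block, a length and GC trend, and each library or the 20 most abundant genes left out. Figures were drawn with matplotlib 3.10.9 in Python 3.11.15.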

Additional observations from a re-analysis of the deposited data

How the results depend on the processing

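With 3 libraries a group and a common biological coefficient of variation of 0.495, changes in members of a few CPM may have gone uncalled, which was not tested. A fit without a library holds fewer samples, so a lost call need not mean a smaller change. The log2 fold changes of the 6 called members stayed below 0 in every setting run. All 6 were called under DESeq2 size factors, library size only, no filter on low counts, at least 1 CPM in 3 libraries, DESeq2, limma-voom, the replicate block, and without the 20 most abundant genes, and 5 with the length and GC trend removed. The median log2 fold change of the members tested in each setting stayed between −1.16 and −0.52, where the −0.52, without arsenite replicate 2, includes a member not tested otherwise (−0.48 over the same 36).

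With the replicate block 3268 genes were called over the whole table, against 2101 without it. Under the block 1 complex I member was higher, assembly factors had 6 lower and 1 higher, and complexes II to V had 14 lower and 3 higher. The replicate block with the length and GC trend removed called 3599 genes, with 10 lower and 1 higher in complex I, 7 lower and 1 higher among assembly factors, and 16 lower and 2 higher in complexes II to V. The trend alone gave 6 assembly factors lower, and higher genes made up 41.8% of its calls over the whole table, against 56.5% without it. DESeq2 called 3313 genes, with 1 complex I member higher, 7 assembly factors lower and 2 higher, and 2 genes of complexes II to V higher. No filter on low counts gave 1 complex I member, 1 assembly factor and 2 genes of complexes II to V higher. In complexes II to V 0 were higher with DESeq2 size factors, library size only, at least 1 CPM in 3 libraries, or without the 20 most abundant genes. For these changes the cause was not tested.

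With a library left out, genes called ranged between 405 and 2002, lower complex I members between 1 and 6, higher ones between 0 and 1, and their median log2 fold change between −1.16 and −0.52. Lower assembly factors ranged between 0 and 5 and higher ones between 0 and 1. In complexes II to V lower genes ranged between 0 and 6 and higher ones between 0 and 1.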
